A study of Mus musculus with 8 samples.

Results

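The comparison described here is that of mice labelled as knockout for the histone methyltransferase G9a with wild-type mice, in kidney without ischemia, and it rests on 4 of the 8 RNA-seq libraries of the series, 2 from knockout mice (KO) and 2 from wild-type mice (WT). All mice were adult male C57BL/6 animals, the KO mice carried a G9a knockout named as kidney-specific, and each library pooled kidney RNA of 3 mice, and replicates therefore vary as pools do. Which promoter drives the deletion, and which exons it removes, is not stated in the sources used. The other 4 libraries, WT_IR and KO_IR, came from the same genotypes on day 3 after the left renal pedicle had been clamped for 45 min (ischemia-reperfusion, IR), and they serve here to estimate the spread between replicates and for a second look at the genes found. Whether the WT and KO kidneys came from mice without surgery or were the uninjured kidneys of operated mice is not stated, nor is the hour of harvest.

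G9a, encoded by Ehmt2, forms a heterodimer with GLP, encoded by Ehmt1, and places mono- and dimethyl marks on lysine 9 of histone H3, a modification of repressed genes in euchromatin. In other cell types G9a is known to hold down interferon and interferon-stimulated genes, germline genes and retroelements. In the kidney its inhibition has been studied for its effect on fibrosis and on the response to tubular injury.

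Values are FPKM, fragments per kilobase of gene scaled by library size, and differences are on the log2(FPKM + 1) scale with the standard error (SE) of the limma fit across all 8 libraries. A gene was called higher or lower where limma's Benjamini-Hochberg adjusted p was under 0.05 over the 15607 genes tested. The 4 libraries held 15408348 to 17596690 fragments, and the median difference of all genes tested was 0.00 on the log2 scale. The summed FPKM of 12 proximal tubule markers was 19482 and 20206 in WT and 19014 and 19151 in KO, so the defining genes of the labelled tissue were abundant. Of other tissues, 0 of 7 adipose, 1 of 6 adrenal and 8 of 10 liver genes were above the minimum mean of 0.5 FPKM, and the liver list summed to 351 and 422 FPKM in WT and 370 and 467 in KO.

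Ehmt2 itself, at chr17:34898469-34914052 on the plus strand (GRCm38), stood at 33.4 and 30.3 FPKM in WT and at 28.1 and 26.4 FPKM in KO. Both KO libraries were thus below both WT libraries, yet the KO level was 0.854 times that of WT, with a difference of -0.22 (SE 0.083) and an adjusted p of 0.370 in limma. After IR the same gene fell by 0.38 in KO_IR against WT_IR, with an adjusted p of 0.0140. The FPKM is a value over the whole gene in whole kidney and the deleted exons are not stated, so this level does not check the deletion. Ehmt1 was at 4.62 and 5.11 FPKM in WT and 5.83 and 5.59 in KO, a difference of 0.19 (SE 0.097, adjusted p = 0.488 in limma). Of the 15 measured H3K9 methyltransferases and their partners, limma called 0, with 0 at an unadjusted p under 0.05 and 0 by voom, and the same 3 counts were 0 among 9 H3K9 demethylases. Trim28, the corepressor that recruits SETDB1, was at 29.4 and 30.1 FPKM in WT and 28.2 and 25.7 in KO, and the demethylase gene Kdm3a was at 3.42 and 3.92 in WT and 3.14 and 3.28 in KO.

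Between KO and WT 34 genes were called, 0.218% of those tested. Of these, 25 were higher in KO (0.16%) and 9 were lower (0.0577%), with adjusted p-values of 0.0419 to 0.0486, close to the threshold. The 25 higher genes included 19 protein-coding genes, and 8 of the 9 lower ones were protein-coding. Differences ran from 0.79 to 2.47 in size, and 25 of the 34 were at least 1 on the log2 scale. The groups did not overlap for any of the 34, which says little alone, since both KO libraries lay above both WT libraries for 21.2% of all genes and below them for 21.8%. No gene was called with only the 4 WT and KO libraries in the limma fit (1755 at an unadjusted p under 0.05). The lowest adjusted p there was 0.202. With voom on fragments recovered from the FPKM, 39 genes were called higher and 22 lower, of which 23 were among the 34. The count also moved with the libraries in the fit: without any 1 of the WT or KO libraries 0 or 1 gene was called in all, without either WT_IR library 5, and without either KO_IR library 17. At an unadjusted p under 0.05, 868 genes were higher (5.56%) and 986 lower (6.32%).

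**Figure D1:**
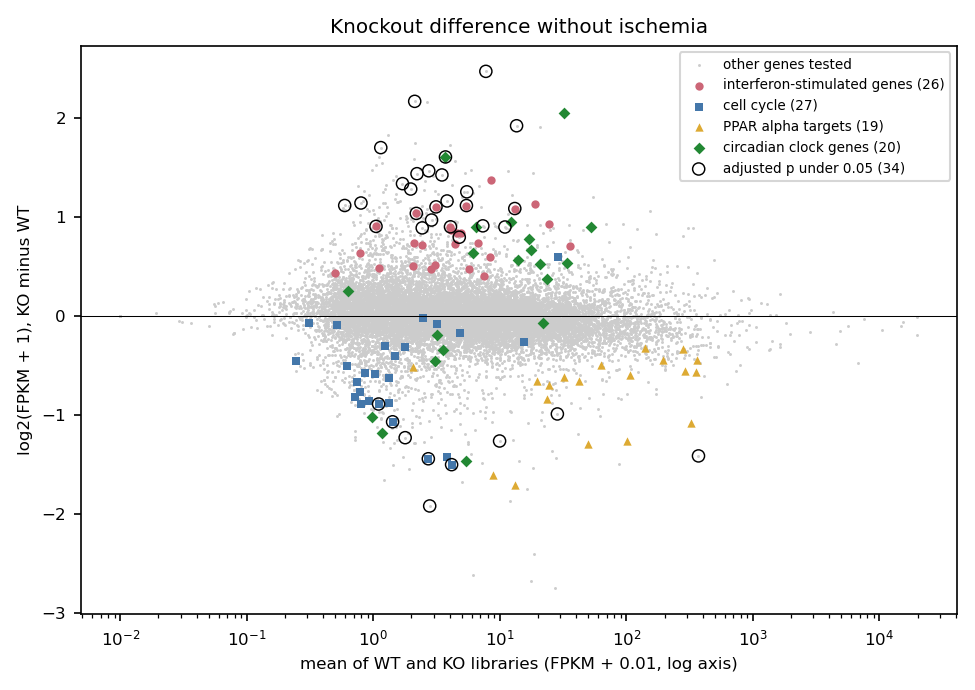
Difference between KO and WT in log2(FPKM + 1) (vertical axis) against the mean of the 4 libraries (FPKM + 0.01, log axis) for the 15607 genes tested. Rings mark the 34 called genes, and coloured symbols mark 4 gene lists: all 26 interferon-stimulated genes lie above 0 and all 19 PPAR alpha targets below it.

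Interferon-stimulated genes were higher in KO. These genes are induced downstream of interferon receptors, in large part by the transcription factor complex ISGF3, and many encode sensors or blockers of viral RNA. All 26 on the list were measured and 6 of them rose, with no member falling, against 0.16% of all genes called higher. At an unadjusted p under 0.05, 24 of the 26 were higher, against 5.56% of all genes, and both KO libraries lay above both WT libraries for 26 of 26, against 21.2%. The median difference was 0.74. Summed over the list, expression was 122 and 120 FPKM in WT and 241 and 228 FPKM in KO, 1.95 times as high.

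Irf7, the transcription factor that amplifies type I interferon production, was at 8.24 and 7.80 FPKM in WT and 19.8 and 16.6 FPKM in KO. The libraries of the genotypes were well apart, and the gene rose by 1.08 (SE 0.12, adjusted p = 0.0444 in limma). Oas1a, Oas2 and Oasl2 belong to the oligoadenylate synthetase family, whose active members make the messenger that activates RNase L upon binding double-stranded RNA. Oasl2 was at 1.5004 and 1.74 FPKM in WT and 4.59 and 4.63 in KO, and rose by 1.10 (SE 0.12). Oas2 was at 1.01 and 1.15 FPKM in WT and 3.02 and 3.52 in KO, a rise of 1.04 (SE 0.13). Oas1a was at 2.55 and 2.51 FPKM in WT and 5.71 and 5.46 in KO, a rise of 0.90 (SE 0.11). In all 3 genes the KO replicates lay closer to each other than to either WT library. Zbp1, a sensor of Z-form nucleic acid that can start necroptosis, was at 0.437 and 0.403 FPKM in WT and 1.67 and 1.64 in KO, 3.94 times as high. Rtp4, an interferon-induced zinc finger protein, was at 2.95 and 3.16 FPKM in WT and 8.33 and 7.26 in KO, and rose by 1.11 (SE 0.12). Outside the list, Ifit3b, Trim30a and Ube2l6, which are interferon-inducible as well, were also called. Trim30a, a regulator of innate sensing, was at 1.23 and 1.57 FPKM in WT and 3.27 and 3.61 in KO. Ube2l6, the enzyme that conjugates ISG15, was at 2.91 and 3.53 FPKM in WT and 6.05 and 6.56 in KO. Neither gene's groups overlapped. Ifit3b was at 2.99 and 2.65 FPKM in WT and 8.19 and 8.01 in KO. It is a close copy of Ifit3 (12.8 and 10.2 FPKM in WT, 30.3 and 22.7 in KO), and the Oas1 genes are close copies too, so how reads were divided between copies is uncertain.

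Members that did not pass the adjustment pointed the same way. Isg15, a ubiquitin-like modifier, was at 5.47 and 3.34 FPKM in WT and 12.9 and 12.5 in KO, a difference of 1.37 (SE 0.27, adjusted p = 0.142 in limma), and its WT replicates lay farther apart on the log scale than its KO replicates. Bst2, the tetherin that holds budding virus at the membrane, was at 28.2 and 26.1 FPKM in WT and 45.0 and 44.5 in KO (adjusted p = 0.168). The closest approach was that of Isg20, with 1.18 FPKM in WT replicate 2 and 1.22 in KO replicate 1. Stat2, a subunit of ISGF3, was at 4.51 and 5.02 FPKM in WT and 9.64 and 7.61 in KO, a difference of 0.73 (adjusted p = 0.0812).

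**Figure D2:**
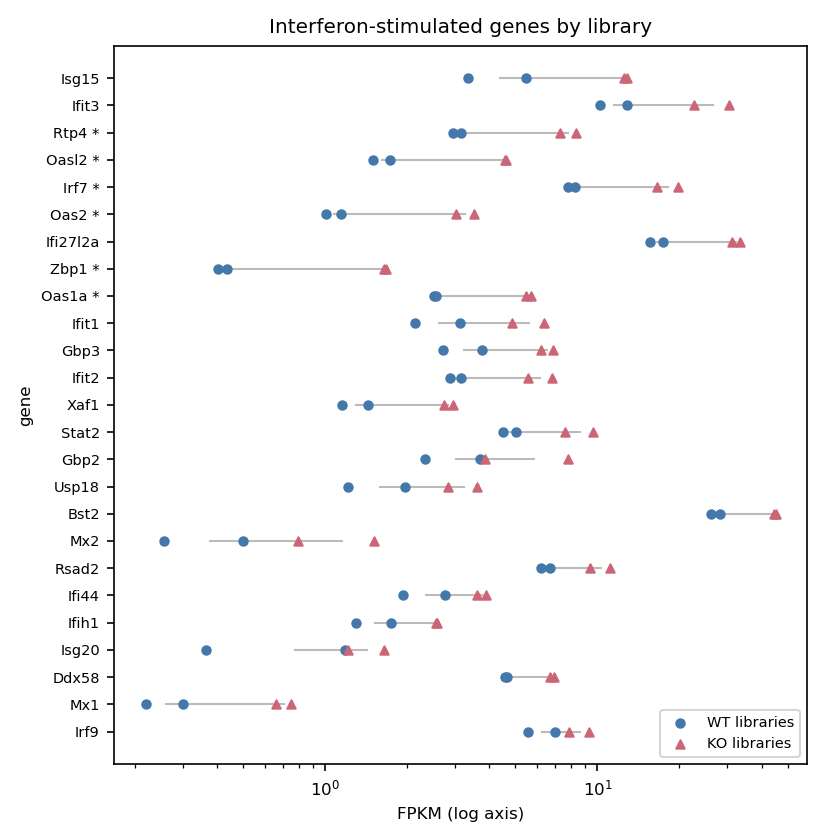
FPKM (log axis) of 25 of the 26 interferon-stimulated genes in each WT library (circles) and KO library (triangles), with a grey line between the group means, ordered by the size of the difference; asterisks mark the 6 genes called by limma. In every row both triangles lie to the right of both circles.

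The interferon-stimulated response element, the site of ISGF3, was searched as a pair of GAAA runs with any 2 bases between them, on both strands of the 250 bases before the RefSeq start of transcription, overlapping matches included. It was found for 9 of the 18 listed genes that have a promoter window, and for 3.5% of the 27025 genes with one. The windows of Oas1a (chr5:120907526-120907775, minus strand) and Gbp3 (chr3:142559794-142560043, plus strand) are printed to show it, since they are the 2 listed genes with a match that had the smallest p. Sequences are those of RefSeq on GRCm38.p6, 5′ to 3′ on the strand of the gene, and capitals mark 2 overlapping matches each, which start 20 and 14 bases before the start of Oas1a and, on the opposite strand, 45 and 39 bases before that of Gbp3.
Oas1a: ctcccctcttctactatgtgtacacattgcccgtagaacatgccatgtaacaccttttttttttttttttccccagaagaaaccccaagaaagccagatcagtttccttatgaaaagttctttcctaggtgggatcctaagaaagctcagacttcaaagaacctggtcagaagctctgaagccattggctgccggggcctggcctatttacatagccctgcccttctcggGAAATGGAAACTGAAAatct
Gbp3: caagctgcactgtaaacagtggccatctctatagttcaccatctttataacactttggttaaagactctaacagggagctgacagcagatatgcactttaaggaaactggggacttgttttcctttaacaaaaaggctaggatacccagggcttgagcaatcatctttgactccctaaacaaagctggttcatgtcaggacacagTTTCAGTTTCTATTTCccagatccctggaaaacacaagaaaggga
Gbp3, a guanylate-binding GTPase, was at 2.72 and 3.77 FPKM in WT and at 6.20 and 6.86 FPKM in KO, with a difference of 0.84 (SE 0.13, adjusted p = 0.0749 in limma). The match describes the letters of the window and does not show that a factor binds there.

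Many antigen presentation genes and macrophage markers were also higher in KO at the unadjusted level, though limma called none of either list. Of 20 MHC and antigen processing genes, 0 passed the adjustment and 0 passed in voom. At an unadjusted p under 0.05, 10 were higher and 0 lower, against 5.56% and 6.32% of all genes. The median difference of the 20 genes was 0.41. Their summed FPKM was 849 and 990 in WT and 987 and 1380 in KO, so KO replicate 1 lay within the WT range. H2-Eb1, a class II beta chain, was at 27.3 and 36.4 FPKM in WT and 48.8 and 69.6 in KO (adjusted p = 0.306). Nlrc5, the activator of class I genes, was at 0.421 and 0.716 FPKM in WT and 1.28 and 1.76 in KO (adjusted p = 0.215). Without KO replicate 2 the median of the list was 0.30 and 17 of the 20 stayed above 0.

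Among macrophage markers 0 of 12 passed in limma and 0 in voom. At an unadjusted p under 0.05, against 5.56% of all genes higher and 6.32% lower, 7 of these markers were higher and 0 lower. Their summed FPKM was 55.7 and 59.8 in WT and 72.4 and 110 in KO, and none of the 12 was at 0 in any of these libraries, the lowest being Itgam at 0.086 and 0.090 in WT and 0.041 and 0.137 in KO. C1qc, a chain of complement C1q made by resident macrophages, was at 5.18 and 5.03 FPKM in WT and 7.28 and 10.7 in KO (adjusted p = 0.165). The summed markers of T and NK cells were at 3.42 and 3.00 FPKM in WT and 3.72 and 5.46 in KO, and those of B cells at 4.64 and 4.17 in WT and 6.56 and 10.3 in KO. At an unadjusted p under 0.05, 0 of 7 T and NK cell genes and 2 of 3 B cell genes were higher, against 5.56% of all genes. Of these, 0 were called by limma or voom. Neutrophil markers overlapped, at 6.58 and 3.90 FPKM in WT and 5.16 and 6.44 in KO. Among the called genes, 2 are known from myeloid cells. Tyrobp, the DAP12 adaptor of myeloid and NK cell receptors, was at 4.26 and 5.33 FPKM in WT and 9.77 and 9.91 in KO, and rose by 0.91 (SE 0.11). Slamf9, a SLAM family receptor of myeloid cells, was at 1.60 and 1.63 FPKM in WT and 3.66 and 4.61 in KO, and rose by 0.97 (SE 0.11). The part of these cells in the interferon-stimulated and antigen presentation values was not tested. In whole-kidney RNA more cells of a type and more RNA per cell cannot be told apart. Without KO replicate 2, the library with the highest macrophage sum, the median of the interferon-stimulated genes was 0.81 with 26 of 26 above 0. That of the macrophage markers was 0.26 with 10 of 12 above 0. This fit is no test of the part of macrophages, since KO replicate 1, at a sum of 72.4 FPKM, was still above both WT libraries.

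KO replicate 2 also stood apart in the tubular injury markers Havcr1 and Lcn2. Havcr1, the gene of KIM-1, was at 0.828 and 1.23 FPKM in WT and 0.593 and 7.50 in KO. Lcn2, the gene of NGAL, was at 2.82 and 1.95 FPKM in WT and 1.54 and 5.13 in KO. The groups overlapped for both genes, and without KO replicate 2 both differences turned negative, to -0.34 for Havcr1 and -0.40 for Lcn2. Kl, the anti-ageing hormone made in distal tubules, was at 79.4 and 75.3 FPKM in WT and 85.2 and 87.7 in KO (0.16, SE 0.19, adjusted p = 0.794). The 22 tubular injury genes summed to 2341 and 2300 FPKM in WT and 1838 and 2444.5 in KO. In this sum KO replicate 1 lay below both WT libraries and KO replicate 2 above them. Of the 22 genes limma called 0 and voom 0. At an unadjusted p under 0.05, 1 was higher and 2 were lower, against 5.56% and 6.32% of all genes.

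Cell cycle genes were lower in KO. Of 27 measured members, 4 fell and 0 rose, against 0.0577% of all genes called lower, and 19 were lower at an unadjusted p under 0.05, against 6.32% of all genes. Both KO libraries lay below both WT libraries for 22 of 27, against 21.8%. The median difference was -0.58, and the levels were low, mostly under 7 FPKM in either group. The list's summed FPKM, 101 and 87.4 in WT and 74.1 and 70.5 in KO, is dominated by Ccnd1 and Pcna.

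Ccnb2, a mitotic cyclin, was at 4.23 and 4.61 FPKM in WT and 0.851 and 1.14 FPKM in KO. The WT level was 4.44 times that of KO, a fall of 1.44 (SE 0.16, adjusted p = 0.0444 in limma). Rrm2, the regulated subunit of ribonucleotide reductase, was at 6.97 and 6.19 FPKM in WT and 1.29 and 2.12 in KO, 3.87 times as high in WT as in KO (adjusted p = 0.0444). Ube2c, the E2 enzyme of the anaphase-promoting complex, was at 1.99 and 2.54 FPKM in WT and 0.501 and 0.600 in KO, and fell by 1.07 (SE 0.13). Mki67, the proliferation marker Ki-67, was at 1.77 and 1.66 FPKM in WT and 0.395 and 0.533 in KO, and fell by 0.89 (SE 0.11). None of the 4 came near overlap between the genotypes. Top2a, Foxm1, Bub1b, Plk1, Cdk1 and Cdc20 had adjusted p-values of 0.0593 to 0.121 and differences of -0.67 to -1.43. Among the genes named because they came next by p, the spindle gene Tacc3 was at 2.15 and 2.28 FPKM in WT and 0.791 and 0.772 in KO (adjusted p = 0.0561), and the augmin subunit gene Haus4 at 5.37 and 5.25 in WT and 3.00 and 2.99 in KO (adjusted p = 0.0738).

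Some members with roles in replication or G1 lay near or above 0. Mcm2, a helicase subunit, was at 2.39 and 2.55 FPKM in WT and 2.54 and 2.27 in KO, and Tyms, thymidylate synthase, at 3.35 and 3.21 in WT and 3.33 and 2.79 in KO, both with overlapping groups. Ccnd1, the G1 cyclin D1, was at 30.2 and 16.2 FPKM in WT and 36.5 and 31.5 in KO, the 1 member with a positive difference (0.59, SE 0.36, adjusted p = 0.578). Rrm2, which serves DNA synthesis as well, was by contrast among the 4 that fell.

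**Figure D3:**
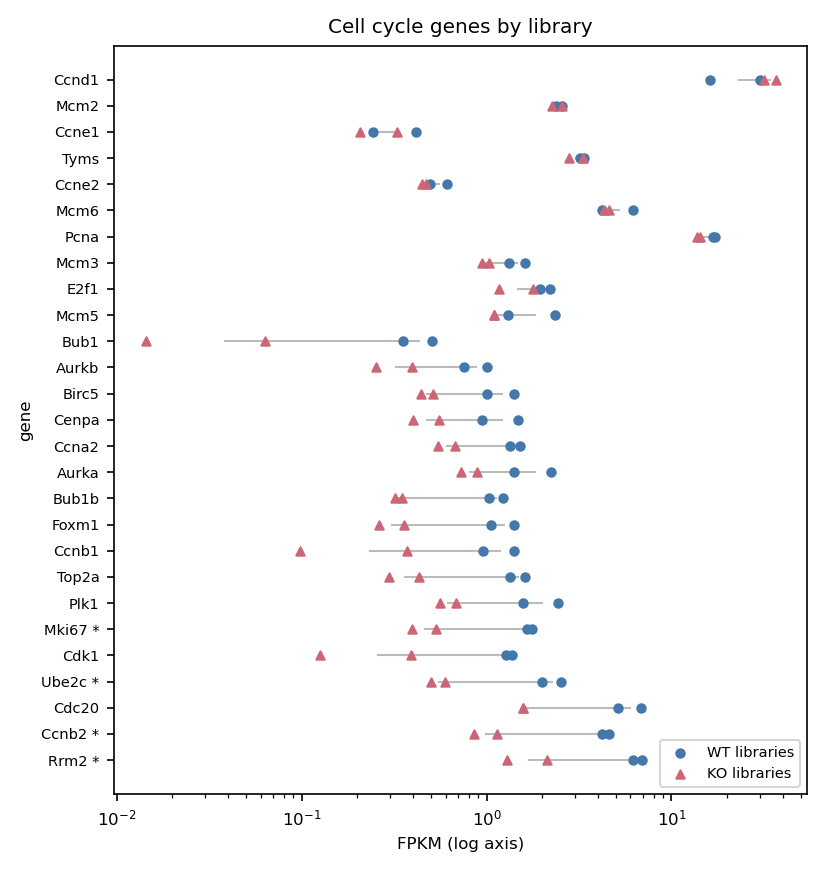
FPKM (log axis) of the 27 cell cycle genes in each WT library (circles) and KO library (triangles), with a grey line between the group means; asterisks mark the 4 genes called by limma. Mitotic genes in the lower rows have both triangles to the left of both circles, whereas Ccnd1 in the top row has them to the right.

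The cell cycle homology region, bound by the DREAM complex, was searched as TTTGAA or TTCGAA on both strands of the same windows. It was found for 8 of 22 listed genes (36.4%) and for 19.6% of all genes with a window. Ccnb2, a called gene with a smaller p than Ube2c, has its match 167 bases before its start. The window of Ube2c (chr2:164769679-164769928, plus strand, RefSeq, GRCm38.p6) is shown because it is a called gene with the match close to its start, 29 bases before it. Capitals mark the match, which is on the opposite strand.
Ube2c: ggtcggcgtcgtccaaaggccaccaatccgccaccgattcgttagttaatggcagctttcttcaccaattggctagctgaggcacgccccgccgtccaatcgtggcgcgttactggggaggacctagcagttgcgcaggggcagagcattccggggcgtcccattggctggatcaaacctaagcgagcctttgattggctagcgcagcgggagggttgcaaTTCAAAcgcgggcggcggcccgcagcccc
In these libraries Ube2c was among the 4 members that fell.

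Among circadian clock genes 1 was called, and others lay on either side at the unadjusted level. In the clock, CLOCK and BMAL1 (Arntl) drive the genes of their own repressors and of the PAR-domain factors through E-boxes, and these genes peak at about the opposite time of day to Arntl, Npas2 and Nfil3. Of the 20 measured genes 1 rose, Ciart, and 0 fell in limma, with the same counts in voom. At an unadjusted p under 0.05, 8 were higher and 4 lower, against 5.56% and 6.32% of all genes. Both KO libraries lay above both WT libraries for 11 of the 20 genes, against 21.2% of all genes, and below them for 4, a share close to the 21.8% of all genes.

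Ciart, a repressor of CLOCK-BMAL1, was at 1.83 and 0.887 FPKM in WT and 6.52 and 5.57 FPKM in KO, and rose by 1.61 (SE 0.19, adjusted p = 0.0478 in limma). Dbp, a PAR-domain factor, was at 20.5 and 6.29 FPKM in WT and 50.6 and 51.0 in KO, a difference of 2.05 (SE 0.54, adjusted p = 0.225). Per2, a repressor, was at 10.6 and 5.79 FPKM in WT and 15.9 and 16.3 in KO (adjusted p = 0.303). In each of the 3 the ratio between the WT pools was larger than that between the KO pools. On the other arm, Arntl was at 1.23 and 2.84 FPKM in WT and 0.328 and 0.249 in KO (adjusted p = 0.221). Npas2, the paralog of Clock, was at 0.747 and 2.63 FPKM in WT and 0.215 and 0.260 in KO (adjusted p = 0.330), and Nfil3, which opposes Dbp at shared sites, at 5.79 and 11.1 in WT and 1.76 and 2.89 in KO (adjusted p = 0.189). For these 6 genes WT replicate 2 was the farther of the WT pools from KO, and without it the median difference of the list was 0.13 in place of 0.53.

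The E-box was searched as CACGTG, a palindrome, and was found in the window of 5 of 17 listed genes (29.4%) and of 6.9% of all genes. The window of Ciart (chr3:95882229-95882478, minus strand, RefSeq, GRCm38.p6) is shown because Ciart is the called member of the list; it holds 3 matches, in capitals.
Ciart: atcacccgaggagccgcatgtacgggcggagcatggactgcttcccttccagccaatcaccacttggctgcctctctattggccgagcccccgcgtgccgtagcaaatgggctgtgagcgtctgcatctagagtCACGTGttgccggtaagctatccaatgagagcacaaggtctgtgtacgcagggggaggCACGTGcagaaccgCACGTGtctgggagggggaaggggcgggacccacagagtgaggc
Beside these letters, Ciart was also higher after IR, at 0.975 and 0.762 FPKM in WT_IR and 4.88 and 5.10 in KO_IR.

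PPAR alpha targets and other genes of fat oxidation were lower in KO without passing the adjustment. PPAR alpha is the fatty acid receptor that induces mitochondrial and peroxisomal oxidation in fasting kidney and liver. Of 19 measured targets limma called 0 and voom 0, while 8 were lower and 0 higher at an unadjusted p under 0.05, against 6.32% of all genes. Every one of the 19 had a negative difference, with a median of -0.62, and both KO libraries were below both WT libraries for 14, against 21.8% of all genes. Ucp2, an inner membrane carrier, was at 38.1 and 40.0 FPKM in WT and 22.8 and 27.4 in KO (-0.62, SE 0.12, adjusted p = 0.140). Slc25a20, the carnitine-acylcarnitine carrier, was at 23.5 and 24.5 FPKM in WT and 14.9 and 14.8 in KO (-0.66, SE 0.13, adjusted p = 0.143), with replicates of each genotype close together. Pdk4, the kinase that shuts pyruvate dehydrogenase in fasting, was at 5.76 and 22.98 FPKM in WT and 3.05 and 3.29 in KO, and Angptl4, an inhibitor of lipoprotein lipase, at 10.7 and 32.2 in WT and 5.66 and 4.46 in KO. For the last 2 genes WT replicate 2 was the high one, the same pool that was farthest from KO in the clock genes.

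**Figure D4:**
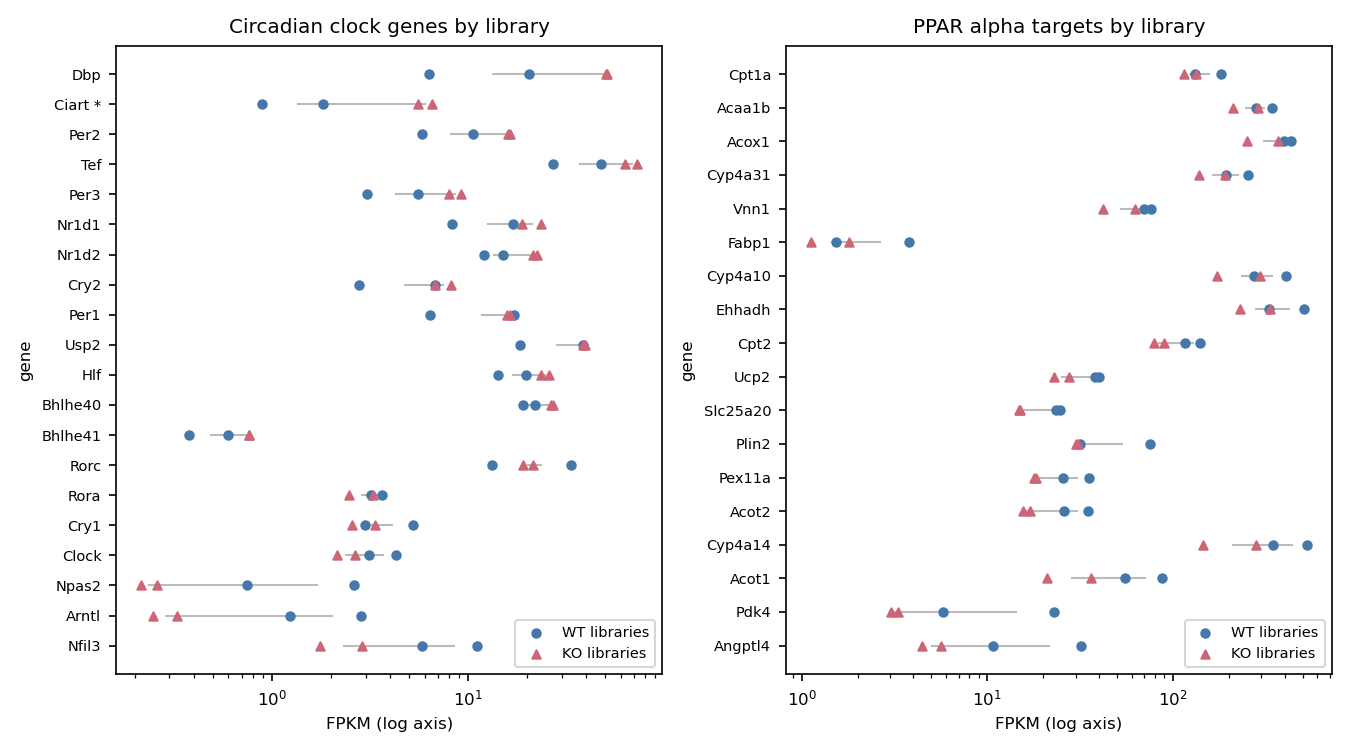
FPKM (log axis) of the 20 circadian clock genes (left) and 18 of the 19 PPAR alpha targets (right) in each WT library (circles) and KO library (triangles), with a grey line between group means; the asterisk marks Ciart, the 1 gene called. The WT circles lie far apart for Dbp, Arntl, Npas2, Pdk4 and Angptl4, where the KO triangles lie close together.

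In fatty acid oxidation, 0 of 22 genes passed in limma and 0 in voom. At an unadjusted p under 0.05, 7 were lower and 1 higher, against 6.32% and 5.56% of all genes. The same shares stand beside the counts of the next lists. Crat, carnitine acetyltransferase, was at 52.7 and 53.7 FPKM in WT and 42.2 and 37.9 in KO (-0.40, SE 0.083, adjusted p = 0.147), and Acaa2, the last enzyme of the mitochondrial spiral, at 282 and 262 in WT and 206 and 180 in KO (adjusted p = 0.247). Among 21 nuclear genes of oxidative phosphorylation the counts were 0 in limma, 0 in voom, and 6 lower with 0 higher at an unadjusted p under 0.05, with a median of -0.20. Ndufv2, a complex I subunit, was at 112 and 104 FPKM in WT and 81.5 and 90.4 in KO (adjusted p = 0.225). Cholesterol synthesis genes pointed the other way: 0 of 19 passed in limma and 0 in voom, and 6 were higher and 0 lower at an unadjusted p under 0.05. Cyp51, the lanosterol demethylase, was at 55.4 and 53.1 FPKM in WT and 81.4 and 103 in KO (0.74, SE 0.15, adjusted p = 0.143).

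Among genes known to be expressed more in female than in male mouse kidney, 2 of 13 rose, although all mice were male. Of all genes, 0.16% were called higher. Slc7a12, an amino acid transporter-like protein, was at 5.42 and 4.68 FPKM in WT and 19.5 and 24.6 FPKM in KO. The gene rose by 1.92 (SE 0.16), with the lowest adjusted p in limma, 0.0419, which it shares with Gm15241, and the lowest KO library lay far above the highest WT library. Prlr, the prolactin receptor, was at 1.82 and 2.11 FPKM in WT and 4.91 and 6.41 in KO, and rose by 1.16 (SE 0.14). The list as a whole lay on both sides: 8 of the 13, Slc7a12 and Prlr included, had a positive difference. At an unadjusted p under 0.05, 3 were higher and 2 lower, against 5.56% and 6.32% of all genes. The third higher one, Kynu, the gene of kynureninase, was at 3.32 and 2.39 FPKM in WT and 5.03 and 5.04 in KO (0.66, SE 0.18, adjusted p = 0.248). Of the lower pair, Adh1 was at 176 and 215 FPKM in WT and 159 and 129 in KO, and Akr1c18 at 20.2 and 20.4 in WT and 9.03 and 15.03 in KO, with adjusted p-values of 0.348 and 0.380. Of 18 male-biased genes limma called 0 and voom 0, with 1 higher and 1 lower at an unadjusted p under 0.05, against the same shares. Slc7a13, the cystine transporter of the late proximal tubule, was at 110 and 136 FPKM in WT and 239 and 198 in KO (adjusted p = 0.281).

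Several of the genes that rose belong to no list. Sycn, the zymogen granule protein syncollin of the pancreas, was at 2.44 and 1.05 FPKM in WT and 13.2 and 14.2 FPKM in KO, 7.86 times as high and the largest rise on the log2 scale among the named genes (2.47, SE 0.26, adjusted p = 0.0444 in limma). Defb42, a beta-defensin gene, was at 0.992 and 0.934 FPKM in WT and 3.59 and 5.399 in KO, and rose by 1.47 (SE 0.18). Ces1g, a carboxylesterase, was at 0.749 and 0.704 FPKM in WT and 3.13 and 3.26 in KO, and rose by 1.28 (SE 0.12). Abcc4, the efflux pump MRP4 of the proximal tubule, was at 7.20 and 7.47 FPKM in WT and 15.3 and 13.8 in KO, and rose by 0.90 (SE 0.11). In all 4 the groups were clearly separate. Nutm1, a gene known for its expression in testis, had 0 fragments in both WT libraries and 66 and 67 in the KO libraries. Its mean KO level of 1.17 FPKM was at least 22.4-fold higher than the level that 3 fragments per library would give in WT. Nutm1 was at 0 and 0.066 FPKM in WT_IR and 0.696 and 0.910 in KO_IR. It thus reached the minimum mean of 0.5 FPKM only through the knockout libraries, so its call is not independent of that filter. Of 24 germline genes, only Sycp3 was measured above the minimum mean, at 3.76 and 4.09 FPKM in WT and 5.48 and 3.30 in KO, with overlapping groups.

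Of the genes that fell outside the cell cycle, Ndrg1 was the most abundant. Ndrg1, a hypoxia-induced gene, was at 466 and 616 FPKM in WT and 218 and 184 in KO, and fell by 1.42 (SE 0.18, adjusted p = 0.0478 in limma). It was the 1 called member of 17 measured hypoxia and glycolysis genes, against 0.0577% of all genes called lower. Of the 17, 3 were lower and 1 higher at an unadjusted p under 0.05, against 6.32% and 5.56% of all genes. Ldha, lactate dehydrogenase A, was at 245 and 246 FPKM in WT and 177 and 187 in KO (adjusted p = 0.143). Prr5, a subunit of mTOR complex 2, was at 36.0 and 40.3 FPKM in WT and 19.9 and 17.6 in KO, and fell by 0.99 (SE 0.13). C4b, a complement component 4 gene, was at 13.0 and 15.9 FPKM in WT and 5.47 and 5.34 in KO, and fell by 1.26 (SE 0.14, adjusted p = 0.0445). C4b has a close copy in the mouse, so its count is uncertain where reads were divided between them.

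C4b lies at chr17:34728380-34743882, 154.6 kb from Ehmt2, and was the 1 called gene among 188 tested within 5 Mb of Ehmt2. In that interval 22 genes were higher and 18 lower at an unadjusted p under 0.05, 21.3% of the genes there against 11.9% of all genes. The H2 genes of the antigen presentation list lie in the same stretch of chromosome 17.

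The next lower genes by p did not pass. Psat1, an enzyme of serine synthesis, was at 22.0 and 33.9 FPKM in WT and 8.45 and 9.15 in KO (-1.53, SE 0.21, adjusted p = 0.0584 in limma). Agt, angiotensinogen, was at 89.2 and 86.3 FPKM in WT and 53.4 and 60.1 in KO (-0.62, SE 0.086, adjusted p = 0.0643). Groups were separate for both. Ethe1, a mitochondrial sulfur dioxygenase, was at 67.1 and 89.6 FPKM in WT and 37.8 and 42.1 in KO (adjusted p = 0.0749), and Ppia, cyclophilin A, at 143 and 115 in WT and 73.2 and 74.3 in KO (adjusted p = 0.0707), the latter with many processed pseudogenes that may take part of its reads. Tchhl1, Tmem53 and Palm3 had adjusted p-values of 0.0707 to 0.0749 and differences of -0.61 to -0.73.

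Most of the remaining called genes were non-coding genes or pseudogenes. Gm15241, an antisense gene at chrX:160488549-160499870 that overlaps Adgrg2, was at 0 and 0.273 FPKM in WT and 4.48 and 3.68 in KO, with an adjusted p of 0.0419. Adgrg2, on the other strand, was at 0.164 and 0.417 FPKM in WT and 0.234 and 0.154 in KO. The library kit is not stated to keep the strand, so reads from the overlap could belong to either gene. Alms1-ps2, a pseudogene of the cilium gene Alms1, was at 1.71 and 1.15 FPKM in WT and 6.23 and 4.79 in KO, and rose by 1.42 (SE 0.16), with reads that may be shared with its parent gene. The pseudogene Gm19810 was at 3.20 and 2.58 FPKM in WT and 0.820 and 0.497 in KO, and fell by 1.23 (SE 0.16). Gm25135, Mir5107, Gm23172, Gm18672 and Gm37419 were called with at most 10 fragments in each of the WT and KO libraries, and their values rest on counting a few fragments of short genes.

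The KO_IR and WT_IR libraries, which did not choose these genes by their difference, gave a second comparison of the genotypes on day 3 after IR, in which 16.6% of all genes were called higher and 13.5% lower in KO_IR. Of the 25 genes higher in KO without IR, 12 had the same sign after IR and 11 were called in the same direction, and 3 were called in the opposite one. Of the 9 lower genes, 7 had the same sign and all 7 were called. Each gene has the same SE in both comparisons, since the spread is fitted over all 8 libraries. Genes picked partly for a small SE keep it after IR, which favours these calls over the shares of all genes. Over all genes 52.2% had the same sign in both comparisons. The difference between the comparisons itself was past the threshold for 14 of the 25 and 4 of the 9, against 16.3% of all genes, though the WT and KO libraries that picked the genes enter this test too.

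Sycn, Slc7a12, Ciart, Defb42, Ces1g, Ifit3b, Prlr and Alms1-ps2 rose in both settings. Slc7a12 was at 5.10 and 3.84 FPKM in WT_IR and 31.5 and 35.9 in KO_IR, a rise of 2.67. Sycn was at 0.102 and 0 FPKM in WT_IR and 5.41 and 3.46 in KO_IR, a rise of 2.35. Both genes were apart by genotype in all 8 libraries. Ccnb2 and Ube2c fell again after IR, by 1.27 and 1.25. In that comparison 22 of the 27 cell cycle genes were called lower, against 13.5% of all genes.

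The interferon-stimulated genes did not keep their difference. After IR 0 of the 26 were called higher and 3 lower by limma, against 16.6% and 13.5% of all genes, and the median was -0.15. Against 16.3% of all genes, the genotype difference after IR differed from that without IR (adjusted p under 0.05) for 14 of these 26. Their summed FPKM was 538 and 515 in WT_IR and 497 and 394 in KO_IR, above all 4 libraries without IR. Oasl2, for one, was at 9.92 and 9.55 FPKM in WT_IR and 9.10 and 7.28 in KO_IR, a difference of -0.23 (adjusted p = 0.175). Irf7 stayed higher, at 28.2 and 30.3 FPKM in WT_IR and 36.3 and 31.0 in KO_IR, a difference of 0.19 (adjusted p = 0.255 in limma). Macrophage markers summed to 581 and 565 FPKM in WT_IR and 244 and 305 in KO_IR, so they were lower in KO_IR where they had been higher in KO. Their part in the change of the interferon-stimulated genes was not tested. Tyrobp, at 45.0 and 48.6 FPKM in WT_IR and 23.4 and 26.2 in KO_IR, fell by 0.89 after IR.

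**Figure D5:**
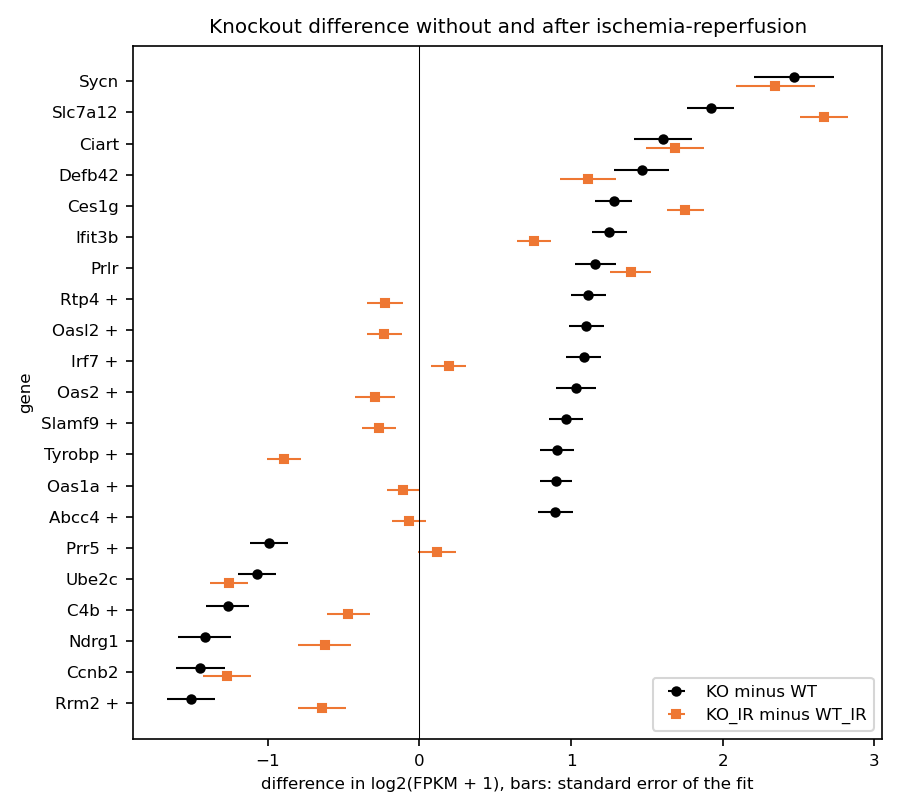
Differences KO minus WT (circles) and KO_IR minus WT_IR (squares) in log2(FPKM + 1), with bars for the SE of the limma fit, for the named genes called without IR; a plus sign marks genes whose 2 differences differ with an adjusted p under 0.05. Sycn, Slc7a12 and Ciart lie far above 0 in both comparisons, whereas Rtp4, Oasl2, Oas2 and Oas1a lie above 0 without IR only. Ifit3b and Irf7, also interferon-inducible, stay above 0 after IR, at 0.76 and 0.19.

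Endothelial markers summed to 150 and 163 FPKM in WT and 189 and 192 in KO, and limma called 0 of 10 and voom 0. At an unadjusted p under 0.05, 6 were higher and 0 lower, against 5.56% and 6.32% of all genes. Kdr, the VEGF receptor 2, was at 6.42 and 6.74 FPKM in WT and 10.3 and 8.76 in KO (adjusted p = 0.147). Podocyte markers summed to 101 and 95.9 FPKM in WT and 100 and 109 in KO, and those of fibroblasts and pericytes to 40.8 and 45.1 in WT and 42.4 and 56.2 in KO, both with overlapping groups. The 5 distal convoluted tubule markers summed to 421 and 399 FPKM in WT and 386 and 390 in KO, with a median difference of -0.06. Of these 5, limma called 0 and voom 0, and 2 were lower and 0 higher at an unadjusted p under 0.05. Pvalb, parvalbumin, was 1 of the lower 2, at 20.03 and 18.5 FPKM in WT and 13.0 and 14.9 in KO (adjusted p = 0.296).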

How the data were processed

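Kidney RNA selected for poly(A) was sequenced in 8 libraries, 2 per group, each a pool of 3 mice. The authors deposited FPKM values for 54251 genes, per the file headers, and alignment used HISAT2 2.0.5 to GRCm38.p6 (mm10), per the submitters' processing notes. The sources used here name no counting tool, annotation release or FPKM tool. Each FPKM multiplied by its gene's length is a whole multiple of 1 step per library in 100% of values (tolerance 1e-06), so fragments were recovered, and 3 fragments on a gene of 1 kb equal 0.185 to 0.206 FPKM in WT and KO, a floor for counting error only. The denominator implied by the step was 0.921 to 0.951 times the gene total in WT and KO and up to 1.19 times over all 8 libraries, so a further scaling is already in the deposited values.

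Tests covered 15607 genes whose mean over the 8 libraries reached 0.5 FPKM, on the log2(FPKM + 1) scale (pseudocount 1), which understates changes of low genes. limma 3.58.1 in R 4.3.3 fitted 1 mean per group with a mean-variance trend (4 residual and 3.04 prior degrees of freedom), and p-values were adjusted by Benjamini-Hochberg within each comparison. The gene lists and named genes were chosen with earlier results of these data known. Named genes are Ehmt2, Ehmt1, Havcr1, Lcn2 and Kl, up to 15 higher and 15 lower protein-coding genes with an adjusted p under 0.05, groups apart, 2 FPKM or more on average in the higher group and a symbol other than a model number, by size of difference, filled by p with a difference of at least 0.5, up to 5 non-coding genes by the same rule, and 2 to 4 members per list; others were chosen after their values were seen. Of 47 lists, those not described had 0 genes called by limma. In 2 lists 1 member, included in the list counts and sums, is not reported here by itself. On simulated data of 15607 genes for KO minus WT, 19, 42, 49 and 50 of 50 changed genes were recovered at 1.5, 2, 4 and 8-fold, with 7 false calls. Changes were planted only in genes of at least 2 FPKM in WT, with independent normal noise of the fitted spread. The simulation therefore covers neither called genes that are lower in WT, such as Zbp1 and Ces1g, nor single pools that stand apart. Alternatives were other pseudocounts, filters and scalings, other limma settings, voom, only the WT and KO libraries, the replicate block, and leaving out each library.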

Additional observations from a re-analysis of the deposited data

Results flagged for a closer look

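For 21 of the named genes the difference between KO and WT differed from that between KO_IR and WT_IR with an adjusted p under 0.05 in limma. Except for Havcr1, Lcn2 and Kl, which are always given, the genes were chosen for their difference without IR, and the same WT and KO libraries enter this test. Values are the difference after IR minus that without IR, on the log2 scale. It was -3.95 for Havcr1 and -3.49 for Lcn2, both with KO replicate 2 far above KO replicate 1, and 1.59 for Kl. In the comparison after IR, KO_IR minus WT_IR was -3.09 for Havcr1, -3.26 for Lcn2 and 1.75 for Kl. Without IR, KO minus WT was 0.87 for Havcr1, 0.23 for Lcn2 and 0.16 for Kl. Among interferon-stimulated genes the difference after IR minus that without was -1.34 for Rtp4, -1.33 for Oasl2 and -0.89 for Irf7. It was -1.33 for Oas2 and -1.01 for Oas1a. For the myeloid genes it was -1.23 for Slamf9 and -1.80 for Tyrobp, and for the efflux pump gene Abcc4 it was -0.97. Among genes lower in KO it was 0.86 for Rrm2, 0.79 for C4b and 1.11 for Prr5. Of the genes that had not passed without IR, it was 1.18 for Psat1, 0.66 for Ppia, 0.85 for Tmem53, 0.72 for Palm3 and 0.94 for Ethe1. For the short non-coding genes with few fragments it was -1.70 for Gm25135 and -2.88 for Mir5107.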

How the results depend on the processing

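The number of called genes depended on the setting, and in each case below the cause was not tested. Against 25 higher and 9 lower genes, a pseudocount of 0.1 gave 14 lower and a pseudocount of 5 gave 6 and 1. No filter gave 14 and 5, a minimum mean of 5 FPKM gave 10 higher, and voom gave 39 and 22. The genes changed as well: 4 of the 34 were called without the filter and 23 by voom. Quantile normalization gave 0 and 0 in limma (1757 at an unadjusted p under 0.05), and so did a fit of only the WT and KO libraries (1755). Leaving out each library in turn gave 0 to 13 higher and 0 to 4 lower genes. Without WT replicate 1 and without KO replicate 1 the count was 0 in all (1635 and 1407 at an unadjusted p), without WT replicate 2 and KO replicate 2 it was 1, without either WT_IR library 5, and without either KO_IR library 17. In these fits the lone library of a group takes the spread of the other groups. TPM, median-of-ratios, robust limma and limma without trend stayed within 1.5 times.

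The labels do not say that equal replicate numbers share mice or a day, and the replicates of WT and KO deviated with a correlation of -0.122 across genes. The correlation was 0.113 for WT with WT_IR and 0.164 for KO with KO_IR. With the replicate block 7 genes were higher and 2 lower, of which 5 were among the 34 of the main fit.

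Of the other values, those that turned did so only when 1 library was left out, and the range over these fits is given as KO minus WT on the log2 scale. It was -0.34 to 2.07 for Havcr1, -0.40 to 0.87 for Lcn2, -0.26 to 0.014 for Mbd3, -0.19 to 0.40 for Sycp3, -0.052 to 0.41 for Cldn16, -0.48 to 0.031 for Scnn1b, -0.25 to 0.11 for Csf3r, -0.20 to 0.66 for Hbb-bt, -0.73 to 0.30 for Hba-a2, -0.00048 to 0.26 for Star and -0.023 to 0.23 for Ddx3y. For the difference after IR minus that without, it was -0.50 to 0.25 for Sycn, -0.21 to 0.37 for Ciart, -0.057 to 0.41 for Ccnb2, -0.011 to 0.16 for Tchhl1, -0.018 to 0.17 for Haus4 and -0.27 to 0.23 for Gm23172. None of these turned values was past the threshold. Over the 20 settings, the named genes' differences between KO and WT kept their direction and side of the threshold 2357 times. They lost the call 338 times and gained it 9 times. Most named genes had not been called, so keeping their side says little about the called ones. Of those called, Slc7a12 and Ifit3b passed most often, in 14 of 20 settings. Oas2 passed in 4 of 20, Mki67 in 4 of 19 and Gm23172 in 3 of 19. Depth limits Gm25135, Mir5107, Gm23172, Gm18672 and Gm37419, with at most 10 fragments per WT or KO library.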

Other observations

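Several lists outside the main account held members that differed at the unadjusted level, with 0 genes called in each by limma and by voom. Over all genes tested 5.56% were higher and 6.32% lower at an unadjusted p under 0.05, the shares to set beside each count here. Of 28 cytochrome P450 and other xenobiotic genes, 5 were higher and 1 lower at an unadjusted p under 0.05; Ugt2b37, a glucuronosyltransferase gene, was at 39.8 and 31.9 FPKM in WT and 52.1 and 48.8 in KO. Of 26 tubular transporter genes, 4 were higher and 0 lower; Slc9a3, the apical sodium-proton exchanger, was at 32.2 and 30.5 FPKM in WT and 38.1 and 39.7 in KO. Of 20 chemokine and NF-kB target genes, 5 were higher and 0 lower; Cxcl10, an interferon-induced chemokine, was at 0.849 and 1.41 FPKM in WT and 2.74 and 3.74 in KO, and after IR it fell by 2.03 in KO_IR against WT_IR. Of 12 glucocorticoid-induced genes, 0 were higher and 2 lower; Fkbp5 was at 31.3 and 29.0 FPKM in WT and 21.1 and 16.5 in KO. Of 16 p53 response genes none was at an unadjusted p under 0.05, and Cdkn1a, the gene of p21, was at 6.25 and 12.7 FPKM in WT and 2.90 and 5.78 in KO.

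By a rule chosen after the values were seen, genes were sought whose nearest libraries of opposite genotype differ at least 3-fold over all 8 libraries, 4 per genotype, with at least 20 fragments. Of 54251 genes 8 were higher in every knockout library and 1, Arntl, was lower. Slc7a12, Ces1g and Nutm1 were among the 8. Spaca1, a gene of the sperm acrosome, had 0, 2, 4 and 4 fragments in the wild-type libraries and 37, 63, 24 and 48 in the knockout libraries. Nkx6-3, a homeobox gene of the stomach, had 2, 2, 0 and 2 against 32, 80, 39 and 62, and Klk1b16, of the tissue kallikrein family whose members are close copies, had 4, 5, 1 and 1 against 31, 35, 21 and 32. The remaining 2 were the non-coding genes Gm10635 and A330044P14Rik.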
